A study of Mus musculus with 8 samples.

Results

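The 38 genes described here encode the glucose transporters, the enzymes of glycolysis and its lactate and pentose phosphate branches, the kinases that gate pyruvate entry into mitochondria, and the hypoxia-inducible factors with a set of hypoxia-induced genes. They were taken by symbol: each was the row of the deposited count table whose Ensembl identifier carries that symbol in the GENCODE mouse M21 annotation. All 38 were found among the 49585 genes of the table, and all 38 passed the filter on low counts that left 22693 genes for testing. The rule uses no measured value, although the set was chosen with earlier results of these data known. No member differed between toxin-treated and PBS-treated females past the threshold, but many differed between libraries. In PBS replicates 1 and 2, 15 members (39.5%) lay above and 6 (15.8%) below all other libraries, beside 19.9% and 19.5% of all genes.

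Cells take up glucose through carriers of the Slc2a family, trap it by phosphorylation and split it into pyruvate, which either enters the mitochondria or is reduced to lactate and exported with a proton. When oxygen is scarce, prolyl hydroxylases stop marking the alpha subunits Hif1a and Epas1 for destruction. Between them, these factors switch on many glycolytic genes together with stress genes such as Bnip3 and Car9, though not every target answers to both. In the mouse uterus after implantation the stromal cells turn into decidua, a tissue known for high glucose uptake and lactate release.

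The hypoxia-inducible factors bind DNA at the core ACGTG or GCGTG. The 250 bases before the start are printed for 4 members, taken from both sides of the pattern between libraries described below. Slc16a1 and Ldha were higher in PBS replicates 1 and 2 than in every other library, and Ldhb and Pdk2 were lower there than in every other library. The windows come from RefSeq on build GRCm38.p6 and overlap no exon of GENCODE M21. Capitals mark ACGTG or GCGTG on either strand, so that the other strand reads CACGT or CACGC, and neighbouring or overlapping matches run together as CACGTG.
Slc16a1 (chr3:104638414-104638663, plus strand): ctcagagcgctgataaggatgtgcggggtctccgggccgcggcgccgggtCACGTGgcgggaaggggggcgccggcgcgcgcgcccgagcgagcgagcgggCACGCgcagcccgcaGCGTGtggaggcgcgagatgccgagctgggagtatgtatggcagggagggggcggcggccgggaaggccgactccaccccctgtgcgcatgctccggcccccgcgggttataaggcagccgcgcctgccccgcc
Ldha (chr7:46845554-46845803, plus strand): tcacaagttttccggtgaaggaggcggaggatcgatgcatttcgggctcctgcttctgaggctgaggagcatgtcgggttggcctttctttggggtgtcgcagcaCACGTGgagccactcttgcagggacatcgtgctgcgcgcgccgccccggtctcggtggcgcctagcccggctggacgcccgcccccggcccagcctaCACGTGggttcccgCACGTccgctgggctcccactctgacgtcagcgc
Ldhb (chr6:142507958-142508207, minus strand): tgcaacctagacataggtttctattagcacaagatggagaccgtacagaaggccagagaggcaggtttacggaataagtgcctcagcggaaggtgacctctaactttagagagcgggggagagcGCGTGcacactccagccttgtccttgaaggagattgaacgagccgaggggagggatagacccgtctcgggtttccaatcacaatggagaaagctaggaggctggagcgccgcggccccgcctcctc
Pdk2 (chr11:95041372-95041621, minus strand): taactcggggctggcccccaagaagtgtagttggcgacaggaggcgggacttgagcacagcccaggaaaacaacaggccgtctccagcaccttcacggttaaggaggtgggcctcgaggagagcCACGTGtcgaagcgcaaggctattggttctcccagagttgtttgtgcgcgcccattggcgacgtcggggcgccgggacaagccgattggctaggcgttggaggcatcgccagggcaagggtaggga
The core was found 4 times in the Slc16a1 window and 5 times in that of Ldha. It was found 1 time in that of Ldhb and 2 times in that of Pdk2. Each strand was counted, so a CACGTG counts 2 times. Other members highest in PBS replicates 1 and 2 held fewer in their first-listed windows. Hk1, Aldoa, Tpi1 and Pkm held 0, Pfkl, Aldoc, Eno1 and Tkt 1, Pgk1 and Slc16a3 2, and Pfkp and Pgam1 3. Of the other members lowest there, Slc2a1 and Pfkm held 2 and Pfkfb4 and G6pdx 1. The number of cores in the printed windows therefore does not stand for either side. RefSeq windows were found for 34 members, several of them with more than 1 start. Of their 50 windows, 42 (84.0%) held the core, beside 38.6% of all 32851 windows of that length. The member windows were also richer in G and C, with a median of 60.4% against 52.4% over all windows. Slc2a3, Slc2a4, Ndrg1 and Epas1 had no entry. A match is a stretch of letters, and binding was not measured here.

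The samples were uteri collected whole, with the fetal tissues, on embryonic day 8 (E8) of pregnancy. The mothers were 8-week-old Foxp3DTR females, which carry the diphtheria toxin receptor under control of the gene for Foxp3, the master factor of regulatory T cells, and all had been mated to BALB/c males. The toxin group (DT, replicates 1, 3, 4 and 5) was given 1 µg of diphtheria toxin into the peritoneum on E1, E3, E5 and E7, and the control group (PBS, replicates 1, 2, 4 and 6) was given PBS; the protocol also calls the injections daily and puts the loss of regulatory T cells at 85%. The 4 libraries of a group were taken to be 4 females, so that p-values measure the spread between these libraries. Conceptus and mother were sequenced together, and in such bulk tissue fewer cells of a type cannot be told apart from less RNA per cell.

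Library totals lay between 94794512 and 109847604 counts, and the members held 0.552% to 0.651% of them. The lowest count of any member in any library was 89 (Aldoc). Foxp3, the check on the depletion, was at 5.10 to 5.72 CPM (counts scaled to the library total) in the libraries labelled DT and at 4.36 to 5.44 CPM in those labelled PBS, which is 0.15 ± 0.10 as a log2 ratio of DT to PBS (SE; edgeR adjusted p = 0.595). The groups are therefore named by their labels. PBS replicates 1 and 2, which share the suffix S1 in their titles, stood apart from all other libraries. Trophoblast markers (8 genes) summed to 189 and 470 CPM in them and to 10.4 to 52.0 CPM in the other 6 libraries, and the 3 embryonic globins summed to 40.9 and 308 CPM against at most 0.495 CPM. What the suffix stands for is not given in the sources used here. S1 and S2 occur only in PBS titles and S3 and S4 only in DT titles, so an effect of the suffix cannot be told apart from that of the treatment. Whether libraries that share a suffix are independent was not tested.

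Across the groups, 0 of 38 members were called higher and 0 lower at an edgeR adjusted p under 0.05 (quasi-likelihood test, adjusted by Benjamini-Hochberg over all genes tested). Over all genes tested, 0.322% were called higher in the DT libraries and 0.00441% lower, and the smallest adjusted p of a member was 0.558. At an unadjusted edgeR p under 0.05, 1 member was higher (Pfkfb3) and 1 lower (Slc16a1), beside 4.72% and 3.98% of all genes. DESeq2 called 0 members, beside 1.04% of all genes higher and 0.278% lower, and so did limma voom, beside 0.203% and 0.00441%. At an unadjusted p under 0.05 the DESeq2 counts of members were 1 higher and 2 lower, beside 4.99% and 5.65% of all genes, while those of limma voom were 1 and 0, beside 5.18% and 2.71%. No member had its 4 DT values all above or all below its 4 PBS values, whereas 3.33% of all genes lay fully above and 1.73% fully below; under scaling by library size alone, Gpi1 and Pfkfb3 lay fully above, beside 4.04% of genes. The fitted change was positive for 13 members and negative for 25, with a median log2 fold change of DT over PBS (log2 change) of -0.09 against 0.01 over all genes. Scaled by library size alone, the all-gene median became 0.12 and that of the members 0.02, with 22 positive and 16 negative, so the sign split depends on the scaling. Without PBS replicates 1 and 2 it was 23 positive and 15 negative, with a median of 0.02.

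**Figure D1:**
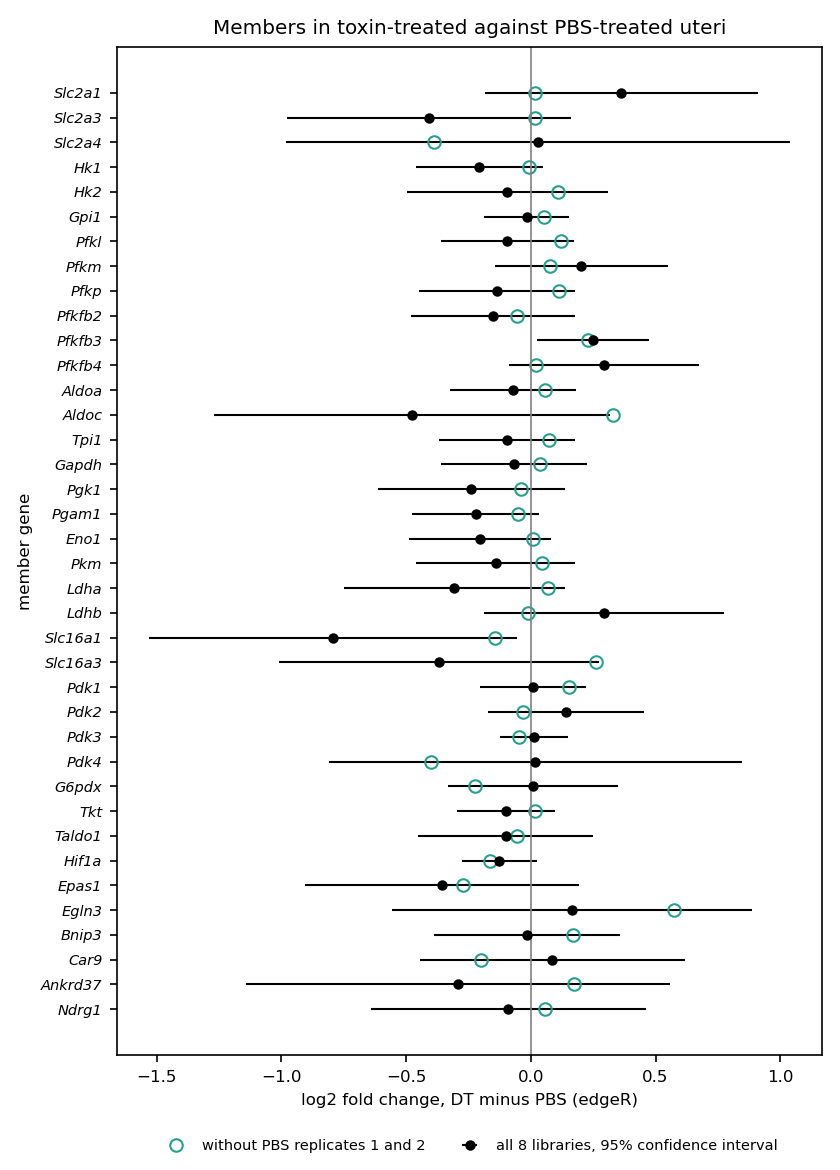
Log2 fold change of each member, DT minus PBS, from edgeR (black points, bars give the 95% confidence interval; n = 4 libraries per group), with the same estimate after PBS replicates 1 and 2 were left out (open circles). The Pfkfb3 interval lies above 0 and that of Slc16a1 below it, and the open circles of Slc2a1, Slc2a3, Ldha and Ldhb lie next to 0.

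Of the 3 glucose transporters, Slc2a1 and Slc2a3 moved in opposite directions between libraries. Slc2a1 (GLUT1, the widespread basal glucose carrier; chr4:119108711-119137983) measured 332, 293, 363 and 294 CPM in DT replicates 1, 3, 4 and 5 and 184, 181, 384 and 247 CPM in PBS replicates 1, 2, 4 and 6. The lowest of the 8 libraries were PBS replicates 1 and 2 and the highest PBS replicate 4, so the PBS group enclosed the whole DT group. The log2 change was 0.36 ± 0.24 (SE; edgeR adjusted p = 0.584; 95% interval -0.19 to 0.91), and 0.02 without PBS replicates 1 and 2. Slc2a3 (GLUT3, a carrier of high affinity; chr6:122727809-122801640) went the other way between libraries. It measured 95.5, 151, 128 and 172 CPM in the DT libraries and 224, 232, 129 and 139.9 CPM in the PBS libraries. Its highest libraries were PBS replicates 1 and 2 and its lowest was DT replicate 1, while PBS replicates 4 and 6 lay inside the DT range. The log2 change was -0.41 ± 0.25 (edgeR adjusted p = 0.573), and 0.02 without PBS replicates 1 and 2.

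Slc2a4 (GLUT4, the insulin-responsive carrier of muscle and fat; chr11:69942539-69948188) was scarce, at 6.43, 2.41, 2.81 and 1.98 CPM in the DT libraries and 2.10, 2.34, 5.47 and 3.47 CPM in the PBS libraries. DT replicate 1 and PBS replicate 4 were high and the other libraries overlapped. The same 2 libraries had the highest sums of 6 myometrial smooth muscle markers, 4694 and 4836 CPM against 3812 to 4328 CPM elsewhere. Des made up much of that sum and was lowest in DT replicate 1 (1799 CPM); the other 5 markers summed to 2895 and 2434 CPM against 1211 to 2000 CPM. The 5 skeletal muscle markers also summed highest there, at 33.2 and 30.3 CPM against 17.2 to 23.2 CPM, with Myh4 at or near 0 throughout. Acta1, most of that sum (26.0 and 25.4 CPM), and Tnnt3 were highest there, whereas Ckm was highest in PBS replicate 2 and Mylpf in PBS replicate 6. The 6 adipocyte markers, mostly Fabp4, summed to 40.9 CPM in DT replicate 1, the lowest library, and to 90.5 CPM in PBS replicate 4. The part of any of these tissues in the Slc2a4 values was not tested. The change of Slc2a4 was 0.03 ± 0.44 (edgeR adjusted p = 0.982). Per exon length, Slc2a1 averaged 81.2 ± 21.7 RPKM (CPM per kilobase of exon; SD over 8 libraries), Slc2a3 21.9 ± 6.60 RPKM and Slc2a4 0.971 ± 0.482 RPKM. That order held in 8 of 8 libraries.

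**Figure D2:**
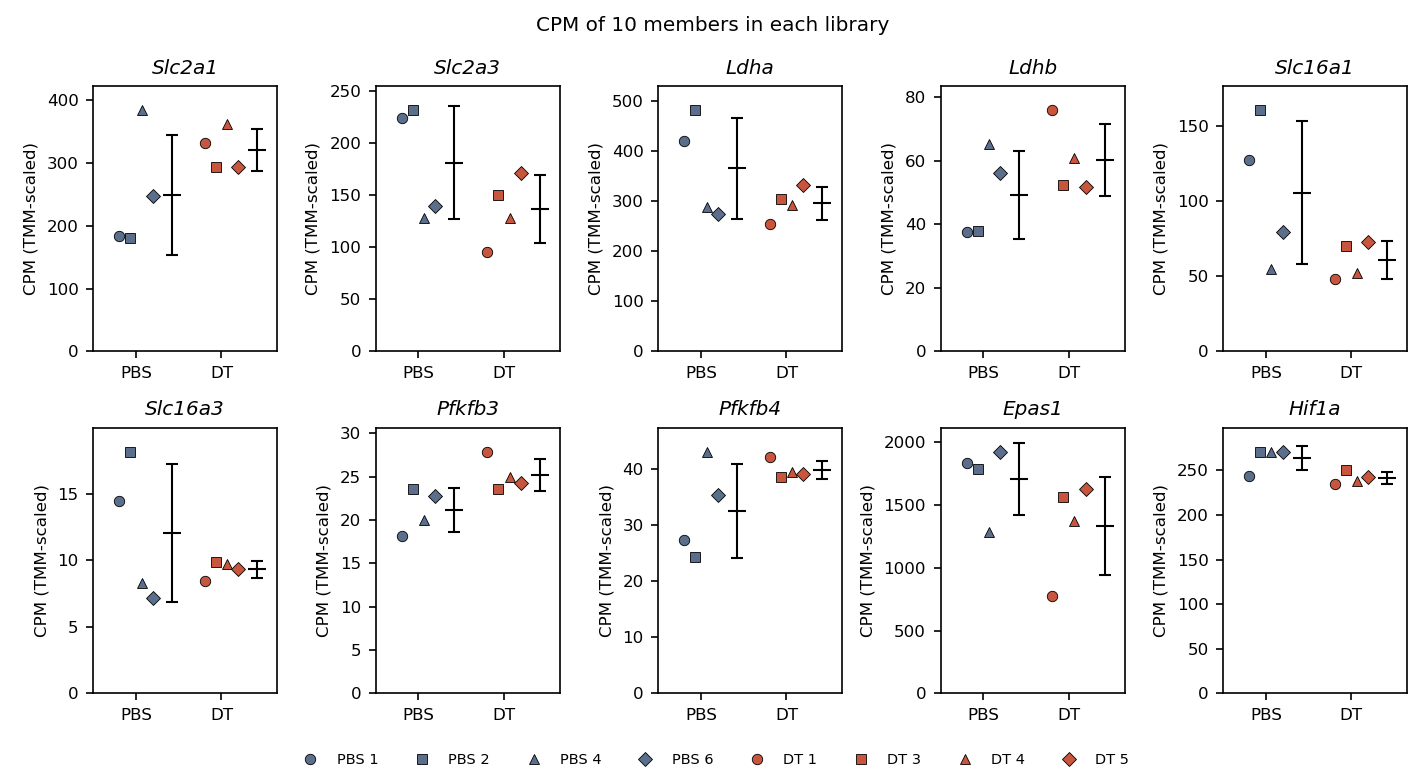
CPM of 10 members in each library (blue, PBS; red, DT; one symbol per replicate), with the mean and SD of each group (n = 4) beside the points; every vertical axis starts at 0. PBS replicates 1 and 2 lie together at one edge for Slc2a1, Slc2a3, Ldha, Ldhb, Slc16a1, Slc16a3 and Pfkfb4, with the other PBS libraries among or near the DT libraries.

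The enzymes from hexokinase to phosphofructokinase varied less. Hk2 (the inducible hexokinase on the mitochondrial surface; chr6:82725025-82774454) measured 167, 241, 213 and 282 CPM in the DT libraries and 283, 263, 200.1 and 218 CPM in the PBS libraries. DT replicate 1 was the lowest and PBS replicate 1 the highest, next to DT replicate 5, and the groups overlapped. The log2 change was -0.09 ± 0.18 (edgeR adjusted p = 0.820), with the opposite sign (0.01) under scaling by library size alone. Hk1, the housekeeping hexokinase, was at 89.0 and 92.3 CPM in PBS replicates 1 and 2 and at 65.9 to 72.9 CPM in the other 6 libraries. Gpi1, the isomerase of the second step, was the steadiest of this group, at 233 to 266 CPM in all 8 libraries.

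Of the 3 subunit genes of phosphofructokinase, the committed step, Pfkl and Pfkp followed each other and Pfkm did not follow them. Pfkl (liver type) and Pfkp (platelet type) were highest in PBS replicates 1 and 2, at 56.7 and 61.5 CPM for Pfkl and 66.8 and 71.5 CPM for Pfkp. Pfkm (muscle type) was lowest there, at 19.9 and 19.7 CPM, and highest in DT replicate 1 at 31.9 CPM. Log2 changes were -0.09, -0.14 and 0.20 for Pfkl, Pfkp and Pfkm, and none passed. Per exon length Pfkm was above Pfkp in 8 of 8 libraries, whereas Pfkl was above Pfkm in 4 of 8, so these 2 cannot be ranked. The order of Pfkm and Pfkp rests on union exon length, 3340 against 13401 bases. In CPM Pfkp averaged 56.8 and Pfkm 23.3 over the 8 libraries. Hk2 exceeded Hk1 per exon length in 8 of 8 libraries (39.1 ± 6.93 against 8.76 ± 1.20 RPKM).

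Fructose-2,6-bisphosphate, the strongest activator of phosphofructokinase, is made and removed by the bifunctional Pfkfb enzymes. Pfkfb3 (the isoform in which kinase activity dominates; chr2:11471433-11554077) measured 27.8, 23.6, 24.9 and 24.3 CPM in the DT libraries and 18.2, 23.6, 20.1 and 22.8 CPM in the PBS libraries. DT replicate 3 was level with PBS replicate 2, the highest PBS library, and the other 3 DT libraries lay above every PBS library. Pfkfb3 averaged 25.2 ± 1.86 CPM in DT and 21.2 ± 2.51 CPM in PBS libraries (SD, n = 4), which gave a log2 change of 0.25 ± 0.10 (SE; edgeR unadjusted p = 0.0337, adjusted p = 0.558). This estimate was little moved by PBS replicates 1 and 2, at 0.23 without them, and ranged from 0.18 to 0.31 when each library was left out in turn.

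Pfkfb4 (chr9:108991778-109032228) measured 42.1, 38.6, 39.5 and 39.1 CPM in the DT libraries and 27.3, 24.4, 43.0 and 35.4 CPM in the PBS libraries. The DT libraries were tight, and the PBS libraries spread to both sides of them. Its log2 change of 0.29 ± 0.17 (edgeR adjusted p = 0.571) became 0.02 without PBS replicates 1 and 2. Pfkfb2, the heart isoform, was at 19.2 to 29.3 CPM in the DT libraries and 22.8 to 30.0 CPM in the PBS libraries; 16.2% of its exon windows of 75 bases also occur in another gene, so its level is uncertain. Per exon length Pfkfb4 led Pfkfb2 in 8 of 8 libraries and Pfkfb2 led Pfkfb3 in 7 of 8.

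All 8 genes of lower glycolysis had a negative fitted change, from -0.48 (Aldoc) to -0.07 (Gapdh), although Aldoa, Tpi1 and Gapdh turned positive (0.04, 0.02 and 0.04) under scaling by library size alone, and 6 turned positive without PBS replicates 1 and 2 (Aldoa 0.06, Aldoc 0.33, Tpi1 0.07, Gapdh 0.04, Eno1 0.01 and Pkm 0.04). Of the 8, 0 passed the test. In 7 of them, all but Gapdh, both PBS replicates 1 and 2 lay above the other 6 libraries. Pkm (pyruvate kinase; chr9:59656368-59679375) may stand for the abundant members: it measured 465, 608, 574 and 647 CPM in the DT libraries and 689, 729.8, 552 and 558 CPM in the PBS libraries. DT replicate 1 was lowest, PBS replicates 1 and 2 highest, and the other 5 libraries lay between 552 and 647 CPM. Its log2 change was -0.14 ± 0.14 (edgeR adjusted p = 0.670), and 0.04 without PBS replicates 1 and 2.

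Aldoa (the main aldolase), Tpi1 (triose phosphate isomerase), Pgk1 (phosphoglycerate kinase, the first ATP-yielding step), Pgam1 (phosphoglycerate mutase) and Eno1 (enolase) were likewise highest in that pair. The mean of PBS replicates 1 and 2 over that of PBS replicates 4 and 6 was 1.19 for Aldoa, 1.25 for Tpi1, 1.31 for Pgk1, 1.25 for Pgam1 and 1.32 for Eno1. DT replicate 1 was the lowest library for Aldoa, Gapdh, Pgk1, Pgam1, Eno1 and Pkm. Gapdh, the glyceraldehyde-3-phosphate dehydrogenase often used as a loading control, ranged from 73.8 CPM in DT replicate 1 to 115 CPM in PBS replicate 2, a 1.56-fold spread. Aldoc, the brain-type aldolase, was the scarcest member and the most uneven of this group. It measured 0.980, 1.15, 1.00 and 1.18 CPM in the DT libraries and 2.01, 2.28, 0.869 and 0.841 CPM in the PBS libraries. At the top were PBS replicates 1 and 2 and at the bottom, below every DT library, PBS replicates 4 and 6, so leaving out the first pair turned its log2 change from -0.48 to 0.33. Levels of 11 members are uncertain because at least 10% of their 75-base exon windows recur in another gene, which for Gpi1, Pfkfb2, Pkm, G6pdx and Ankrd37 is mainly one that overlaps the same locus: 52.8% for Pgk1, 34.9% for Pgam1, 34.4% for Bnip3, 23.0% for Eno1, 22.6% for Gapdh (shared with 121 genes), 17.8% for Pkm and 10.6% to 16.2% for Gpi1, Pfkfb2, Ldhb, G6pdx and Ankrd37.

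The genes that turn pyruvate into lactate and move lactate out also split PBS replicates 1 and 2 from the other libraries. Slc16a1 (MCT1, a proton-coupled lactate carrier; chr3:104638668-104658462) measured 48.2, 70.5, 52.5 and 72.6 CPM in the DT libraries and 128, 161, 54.9 and 79.4 CPM in the PBS libraries. Well above the DT range stood PBS replicates 1 and 2, just above it PBS replicate 6 and inside it PBS replicate 4. Slc16a1 averaged 60.9 ± 12.4 CPM in DT and 106 ± 47.5 CPM in PBS libraries (SD, n = 4), which gave a log2 change of -0.79 ± 0.32 (SE; edgeR unadjusted p = 0.0377, adjusted p = 0.562). It was -0.14 without PBS replicates 1 and 2, and -1.24 without PBS replicates 4 and 6 (edgeR adjusted p = 0.0308), so both its size and its call changed with the control pair left out. Slc16a3 (MCT4, the lactate exporter of glycolytic cells; chr11:120948480-120960868) measured 8.42, 9.84, 9.70 and 9.34 CPM in the DT libraries and 14.5, 18.1, 8.33 and 7.19 CPM in the PBS libraries. Every DT library lay below PBS replicates 1 and 2 and above PBS replicates 4 and 6. For Slc16a3 the log2 change was -0.37 ± 0.28 (edgeR adjusted p = 0.612), and 0.26 without PBS replicates 1 and 2.

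Ldha (the subunit that favours lactate formation; chr7:46841475-46855627) measured 254, 304, 292 and 332 CPM in the DT libraries and 419, 481, 288 and 273 CPM in the PBS libraries. Its partner Ldhb (the subunit that favours pyruvate formation; chr6:142490249-142507957) measured 75.9, 52.3, 60.9 and 51.9 CPM in the DT libraries and 37.5, 37.8, 65.3 and 56.0 CPM in the PBS libraries. The pair of PBS replicates 1 and 2 was thus highest for Ldha and lowest for Ldhb, and DT replicate 1 was the lowest for Ldha and the highest for Ldhb. Log2 changes were -0.31 ± 0.19 for Ldha (edgeR adjusted p = 0.578) and 0.29 ± 0.21 for Ldhb (edgeR adjusted p = 0.602). Without PBS replicates 1 and 2 they were 0.07 and -0.01. Per exon length Ldha exceeded Ldhb, and Slc16a1 exceeded Slc16a3, in 8 of 8 libraries.

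The pyruvate dehydrogenase kinases switch off the enzyme complex that sends pyruvate into the citrate cycle. Pdk3 was the steadiest member of all, at 24.0 to 27.0 CPM in the 8 libraries, a 1.13-fold spread with a log2 change of 0.01 ± 0.06 (edgeR adjusted p = 0.938). Pdk4 (the isoform raised by fasting and fat use; chr6:5483351-5496309) was the most uneven kinase. It measured 13.4, 5.73, 8.95 and 5.75 CPM in the DT libraries and 5.83, 5.30, 10.9 and 11.4 CPM in the PBS libraries. DT replicate 1 was highest and PBS replicate 2 lowest, and each group held high and low libraries. For Pdk4 the log2 change was 0.02 ± 0.36 (edgeR adjusted p = 0.986). Pdk1, a target of the hypoxia-inducible factors, was at 23.6 to 30.7 CPM, and Pdk2, the most widespread kinase, at 10.8 to 17.2 CPM, with fitted changes of 0.01 and 0.14. Per exon length Pdk3 led Pdk2 in 8 of 8 libraries, Pdk2 led Pdk1 in 7 of 8 and Pdk1 led Pdk4 in 6 of 8. The order of Pdk2 and Pdk1 rests on union exon length, 3163 against 7779 bases. In CPM Pdk1 averaged 26.6 and Pdk2 14.4 over the 8 libraries.

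Among the pentose phosphate genes, G6pdx (the X-linked dehydrogenase that opens the branch and yields NADPH; chrX:74409483-74429194) measured 100.3, 101, 115 and 96.4 CPM in the DT libraries and 84.2, 85.4, 132 and 109 CPM in the PBS libraries. Again the lowest libraries were PBS replicates 1 and 2, and the highest was PBS replicate 4. The transketolase Tkt and the transaldolase Taldo1, which return sugars to glycolysis, were at 122 to 151 CPM and 141 to 232 CPM. Tkt was highest in PBS replicates 1 and 2, and Taldo1 lowest in DT replicate 1. Fitted changes of the 3 genes lay between -0.10 and 0.01, and 0 passed.

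Of the oxygen-sensing factors, Epas1 (HIF-2 alpha, prominent in decidua and endothelium; chr17:86753700-86833410) had the highest level per exon length of all members, 272 ± 66.7 RPKM (SD over 8 libraries). It measured 774, 1563, 1370.2 and 1623 CPM in the DT libraries and 1831, 1788, 1286 and 1920.1 CPM in the PBS libraries. DT replicate 1 was far below all others, and PBS replicate 4 lay between it and the remaining DT libraries. Its log2 change was -0.36 ± 0.24 (edgeR adjusted p = 0.587), and -0.17 without DT replicate 1. Hif1a (HIF-1 alpha, regulated mainly by protein breakdown, which RNA does not show; chr12:73901375-73947530) was nearly level. It measured 235, 250.2, 238 and 242 CPM in the DT libraries and 244, 270.2, 270.0 and 270.4 CPM in the PBS libraries. PBS replicates 2, 4 and 6 were above all DT libraries and PBS replicate 1 lay inside the DT range. Its log2 change was -0.13 ± 0.07 (edgeR adjusted p = 0.571; 95% interval -0.28 to 0.02) and ranged from -0.16 to -0.11 when each library was left out in turn. Epas1 exceeded Hif1a per exon length in 8 of 8 libraries, by 3.47-fold to 7.92-fold.

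Of the genes that these factors induce, Egln3, Bnip3, Ankrd37 and Ndrg1 were each lowest in DT replicate 1, as were Hif1a and Epas1. Of all genes tested, 27.6% were lowest in that library. Car9 was not, and the highest library was DT replicate 4 for Egln3, PBS replicate 2 for Bnip3 and Ankrd37, and DT replicate 5 for Ndrg1. Egln3, the hypoxia-induced prolyl hydroxylase that feeds back on the factors, was at 3.86 CPM in DT replicate 1 and at 8.14 to 9.65 CPM in the other DT libraries, and at 8.69, 8.64, 5.37 and 5.05 CPM in the PBS libraries. Bnip3, a mitochondrial protein of mitophagy, ranged from 46.6 CPM in DT replicate 1 to 75.1 CPM in PBS replicate 2. Ankrd37 ranged from 1.41 CPM in DT replicate 1 to 5.34 CPM in PBS replicate 2, and 22.7% of its exon length overlaps Lrp2bp on the opposite strand. Car9 (a carbonic anhydrase of the cell surface that handles acid; chr4:43506966-43513729) had another order of libraries. It measured 2.61, 2.14, 2.00 and 1.63 CPM in the DT libraries and 1.43, 1.66, 2.73 and 2.08 CPM in the PBS libraries. PBS replicate 1 was lowest, and PBS replicate 4 and DT replicate 1 were highest, which were the lowest libraries for Ankrd37 and Bnip3. For Car9 the log2 change was 0.09 ± 0.23 (edgeR adjusted p = 0.879). Ndrg1, a stress-response gene, was at 91.2 to 192 CPM in the DT libraries and 117 to 179 CPM in the PBS libraries. Over Egln3, Bnip3, Car9, Ankrd37 and Ndrg1, fitted changes ran from -0.29 to 0.17, and 0 passed.

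**Figure D3:**
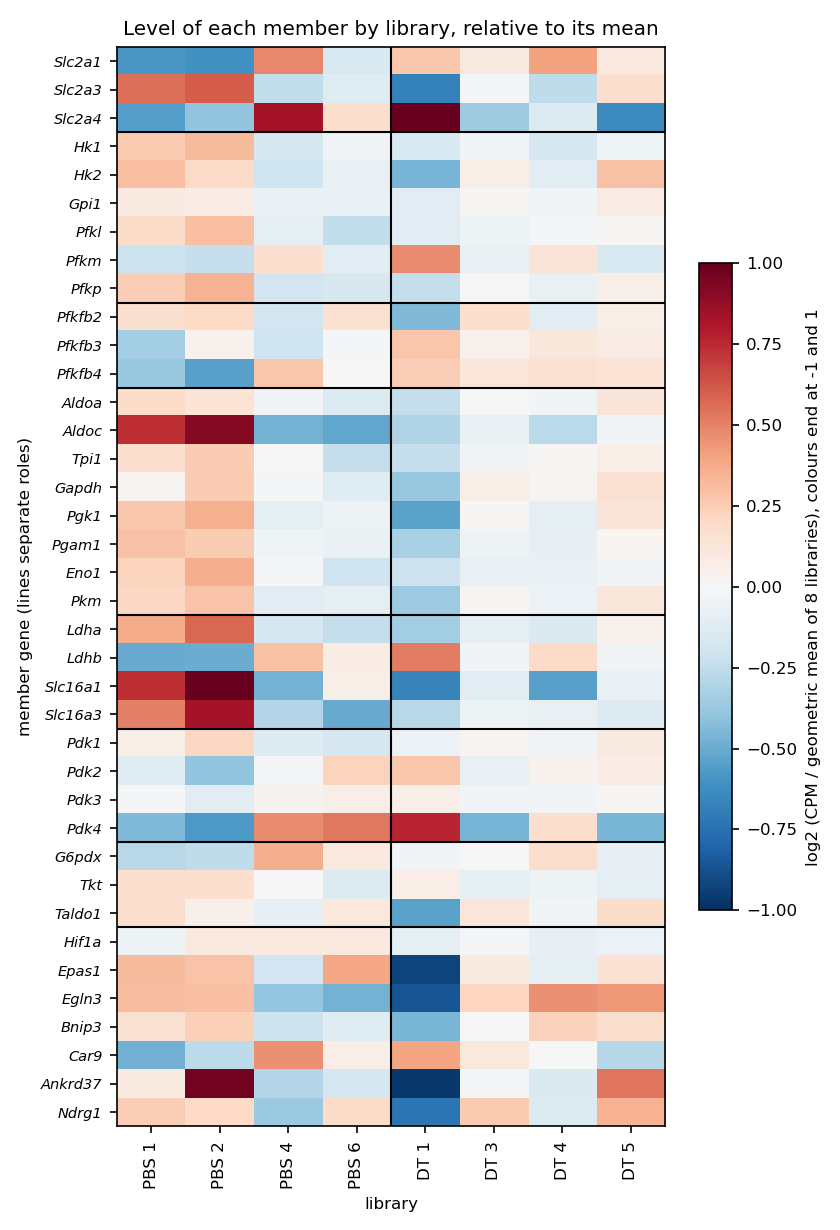
Level of each member in each library as log2 of CPM over the gene's geometric mean of the 8 libraries (red above, blue below; colours end at -1 and 1), with PBS libraries left of the vertical line, DT libraries right of it and horizontal lines between roles. PBS replicates 1 and 2 are red for most genes from Slc2a3 to Slc16a3 and blue for Slc2a1, Slc2a4, Pfkm, Pfkfb4 and Ldhb, and DT replicate 1 shows nearly the reverse.

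The contrast between libraries was larger than that between the groups. In both PBS replicate 1 and PBS replicate 2, 15 of 38 members (39.5%) lay above all other libraries, beside 19.9% of all genes tested. They were Slc2a3, Hk1, Pfkl, Pfkp, Aldoa, Aldoc, Tpi1, Pgk1, Pgam1, Eno1, Pkm, Ldha, Slc16a1, Slc16a3 and Tkt, which run from uptake through glycolysis to lactate export. In the same pair 6 members (15.8%), namely Slc2a1, Pfkm, Pfkfb4, Ldhb, Pdk2 and G6pdx, lay below all other libraries, beside 19.5% of all genes. In PBS replicates 4 and 6, 0 members lay above and 3 (Aldoc, Slc16a3 and Pdk1) below all others, beside 2.03% and 2.71% of genes. DT replicate 1 was the lowest of the 8 libraries for 20 members (52.6%), beside 27.6% of genes, and the highest for 7 (18.4%: Slc2a4, Pfkm, Pfkfb3, Ldhb, Pdk2, Pdk3 and Pdk4), beside 27.2%. These counts were made after the libraries' values had been seen and carry no test.

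The same split shows in the fits, which use the same values and so give no separate support for it. Leaving out PBS replicates 4 and 6 sets the DT libraries against PBS replicates 1 and 2, already seen to stand apart. The adjusted p-values of that fit therefore carry no further weight. Without PBS replicates 4 and 6, edgeR called 2 members higher in the DT libraries, Slc2a1 (log2 change 0.81, adjusted p = 0.0268) and Pfkfb4 (0.63, adjusted p = 0.0219). It then called 4 lower: Hk1 (-0.38, adjusted p = 0.0414), Aldoc (-0.99, adjusted p = 0.0300), Slc16a1 and Slc16a3 (-0.80, adjusted p = 0.0272). In that fit 478 genes (2.02%) were higher and 764 (3.23%) lower in all. Without PBS replicates 1 and 2, 0 members were called, and 1 gene in all (0.00426%, lower). The median SD of log2 CPM over the members was 0.25 within the PBS group and 0.16 within the DT group, beside 0.23 and 0.21 over all genes. Among the 6234 tested genes that averaged 5 or more in log2 CPM, it was lower, at 0.132 and 0.127. Both member medians lay above these, although not all members are that abundant. Within PBS replicates 1 and 2 alone the member median was 0.07, and within PBS replicates 4 and 6 alone 0.09. Over genes above 0 in all libraries these medians were 0.10 and 0.15. An SD over 2 libraries is imprecise.

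Other tissues moved with these libraries. The 8 trophoblast markers, of which 7 were tested and 0 called, summed to 13.4 to 52.0 CPM in the DT libraries and to 189, 470, 10.4 and 24.7 CPM in PBS replicates 1, 2, 4 and 6, and Gcm1 was at 0 in all 4 DT libraries. The 7 yolk sac and endoderm markers (0 called) summed to 5.16 to 14.4 CPM in the DT libraries and to 71.9, 187, 8.06 and 18.0 CPM in the PBS libraries. The 5 uterine natural killer cell markers (0 called) summed to 139 to 237 CPM in the DT libraries and to 441, 547, 187 and 249.6 CPM in the PBS libraries. Prf1, Gzmb and Il2rb carried that sum, whereas Ncr1 lay between 5.16 and 7.25 CPM in all libraries and Klrb1c, at 4.97 CPM in PBS replicate 2, was inside the DT range there. Trophoblast, endoderm and natural killer cell sums were therefore all highest in the 2 libraries where the 15 members were highest. In DT replicate 1 the 8 decidual stroma markers (0 called) summed to 2517 CPM, against 5709 to 11290.0 CPM in the other 7 libraries. The decidual prolactin Prl8a2, the largest part of that sum, was at 687 CPM there against 2893 to 8960 CPM. Bmp2, Wnt4, Hand2, Prl3c1 and Hoxa11 were also lowest in DT replicate 1. Prl3c1 was at 74.6 CPM there, near PBS replicates 1 and 2 (87.2 and 96.7 CPM). Alpl, at 86.5 CPM in DT replicate 1, was higher only in DT replicate 4. Hoxa10 was higher in DT replicate 1 (377 CPM) than in PBS replicate 2 (350 CPM). Of the 5 T cell markers 3 were called higher in the DT libraries (Cd3e, Cd5 and Lck), and of the 6 macrophage markers 2 (C1qa and C1qb). The part of any of these tissues in the members' values was not tested.

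**Figure D4:**
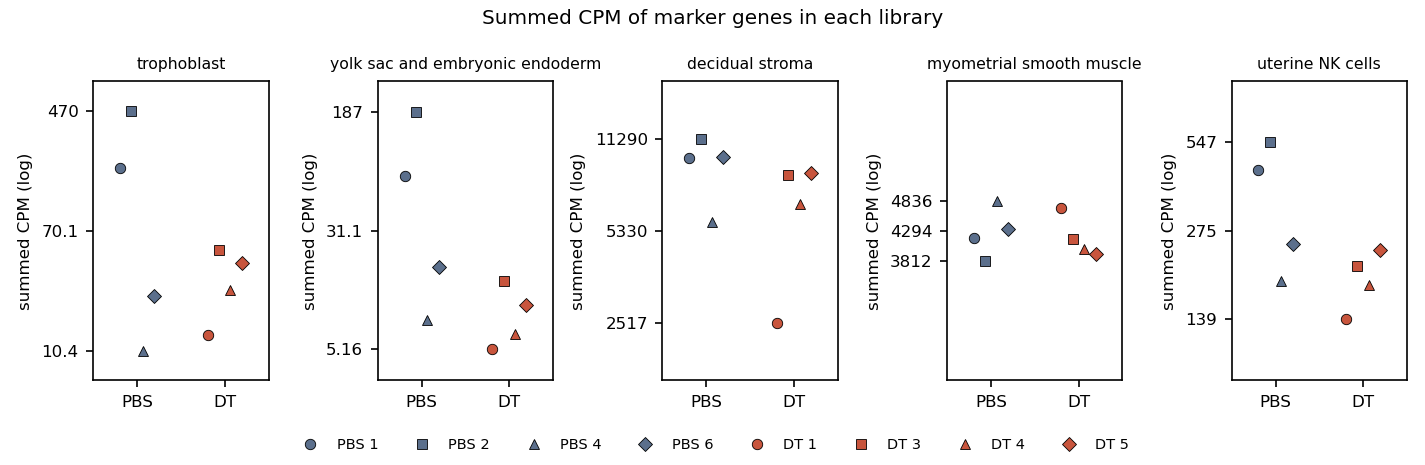
Summed CPM of 5 marker lists in each library on a log axis (blue, PBS; red, DT; one symbol per replicate). PBS replicates 1 and 2 lie above all other libraries for the trophoblast, yolk sac and natural killer cell sums, and DT replicate 1 lies lowest for decidual stroma.

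Partner genes of the same step were also compared as a ratio of counts within a library, which does not depend on how libraries are scaled. Two-sided exact permutation tests with 4 against 4 libraries cannot give a p below 0.0286, so that after Benjamini-Hochberg adjustment over 12 ratios none could pass unless at least 7 reached that p, and 0 did. The adjusted values therefore say little about any single ratio. The count ratio of Slc2a1 to Slc2a3 was 3.47, 1.95, 2.84 and 1.71 in the DT libraries and 0.820, 0.782, 2.99 and 1.77 in the PBS libraries. Only in PBS replicates 1 and 2 did Slc2a3 collect more counts than Slc2a1 (log2 difference between the groups 0.82, exact permutation p = 0.200, adjusted p = 0.600). The count ratio of Ldhb to Ldha was 0.156 to 0.299 in the DT libraries and 0.0897, 0.0784, 0.227 and 0.205 in the PBS libraries, so the same 2 libraries stood apart (log2 difference 0.59, exact permutation p = 0.257, adjusted p = 0.617).

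Pfkfb3 to Pfkfb2 had the smallest p of the 12 ratios. It was 1.45, 0.807, 1.03 and 0.891 in the DT libraries and 0.624, 0.789, 0.879 and 0.788 in the PBS libraries (log2 difference 0.41, exact permutation p = 0.0571, adjusted p = 0.514). The groups overlapped, since DT replicate 3 lay below PBS replicate 4. Slc16a3 to Slc16a1 was 0.129 to 0.185 in the DT libraries and 0.0905 to 0.152 in the PBS libraries (log2 difference 0.43, exact permutation p = 0.0857, adjusted p = 0.514). Slc2a4 to Slc2a1 was within 0.0114 to 0.0142 in all PBS libraries, while DT replicate 1 lay above that range at 0.0194 and the other DT libraries below it at 0.00674 to 0.00822. The log2 difference of that ratio was -0.46 (exact permutation p = 0.200, adjusted p = 0.600).

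**Figure D5:**
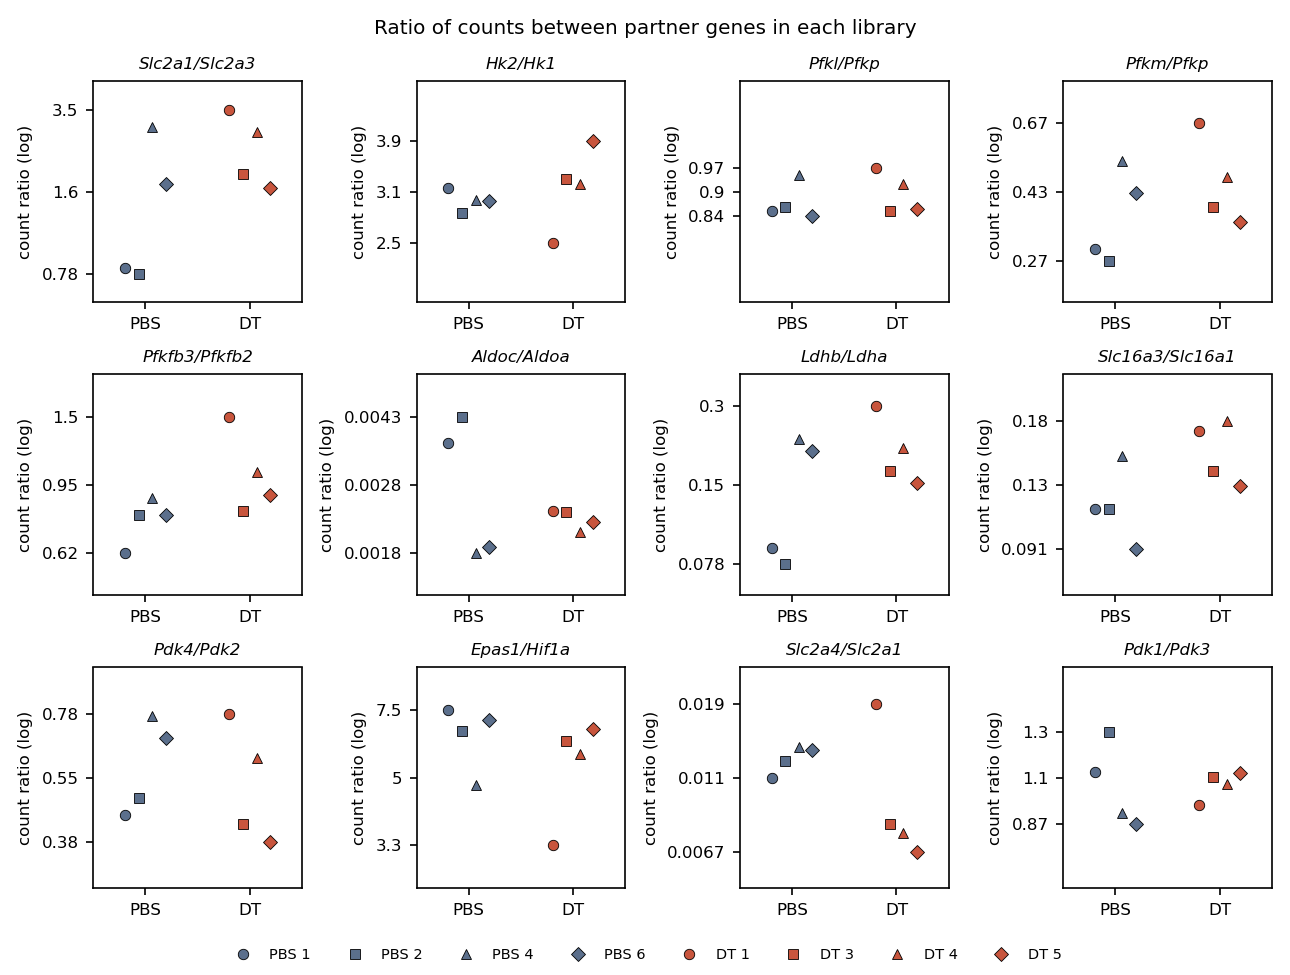
Ratio of counts between 12 pairs of partner genes in each library on log axes (blue, PBS; red, DT; one symbol per replicate). PBS replicates 1 and 2 lie apart for Slc2a1/Slc2a3, Ldhb/Ldha and Aldoc/Aldoa, and the groups overlap in every panel.

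Around the members, 8 further lists of pathway genes held 132 genes, of which 123 were tested, and 0 were called in either direction by edgeR. At an unadjusted edgeR p under 0.05, 3 were higher and 5 lower, beside 4.72% and 3.98% of all genes. DESeq2 called 1 higher and 1 lower, beside 1.04% and 0.278% of all genes. By limma voom 0 were called, beside 0.203% and 0.00441% of all genes. Median log2 changes of the lists lay between -0.11 (other glycolytic enzymes) and 0.02 (nuclear-encoded oxidative phosphorylation). The gene nearest to the threshold was Hk3, the hexokinase typical of myeloid cells. It measured 3.88, 4.95, 4.06 and 5.22 CPM in the DT libraries and 2.33, 2.29, 2.84 and 2.57 CPM in the PBS libraries. All 4 DT libraries lay above all 4 PBS libraries, as for 3.33% of all genes, and Hk3 was the only such gene among the 18 tested in its list. Its log2 change was 0.85 ± 0.14 (edgeR adjusted p = 0.0609). DESeq2 called it, with an adjusted p of 7.39e-06, and edgeR did so without DT replicate 1 (adjusted p = 0.0436). The 6 macrophage markers summed to 362 to 389 CPM in the DT libraries and 258 to 344 CPM in the PBS libraries. Adgre1, C1qa and C1qb lay fully above in the DT libraries, again beside 3.33% of all genes, while Cd68 had a log2 change of -0.54. Of the 5 neutrophil markers, S100a9 (log2 change 1.72), Csf3r (0.50) and Retnlg (1.93) lay fully above in the DT libraries with 0 called, while S100a8 had -0.88 and Cxcr2 -0.74. The neutrophil sum, mostly S100a8, was 15.3 to 104 CPM in the DT libraries and 34.05 to 166 CPM in the PBS libraries. The part of either cell type in the Hk3 values was not tested.

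The 17 tested genes of glucose and fructose transport and sensing held Slc2a6, a carrier known from macrophages, and Slc2a5, the fructose carrier. Slc2a6 was at 1.77 to 2.25 CPM in the DT libraries and 1.12 to 1.75 CPM in the PBS libraries (log2 change 0.41 ± 0.16, edgeR adjusted p = 0.562). It was the only gene of the 17 without overlap, beside 3.33% of all genes fully above. Slc2a5 was at 0.630 to 0.864 CPM in the DT libraries and at 1.95, 2.35, 0.784 and 1.05 CPM in the PBS libraries (log2 change -1.05 ± 0.35, edgeR adjusted p = 0.509). The high values of Slc2a5 were those of PBS replicates 1 and 2, the libraries with the high yolk sac sums given above.

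In the lists nearer to the mitochondria, Emb, a partner protein of some lactate carriers, was at 63.6 to 76.6 CPM in the DT libraries and at 109, 145, 62.6 and 92.0 CPM in the PBS libraries (log2 change -0.59 ± 0.22, edgeR adjusted p = 0.555). Its high libraries were those of Slc16a1. Pdp2, a phosphatase that reactivates pyruvate dehydrogenase, had a log2 change of -0.15, and Pcx, which turns pyruvate into oxaloacetate, one of -0.37. Gbe1, the glycogen branching enzyme, had -0.13. In the pentose phosphate list H6pd, the dehydrogenase of the endoplasmic reticulum, had -0.29 and Rpe -0.11. The oxidative phosphorylation genes Cox6c and Sdhb had 0.18 and -0.17. None of these passed.

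Of the 13 regulators of the hypoxia-inducible factors, Egln1, the main oxygen-sensing prolyl hydroxylase, had a log2 change of -0.16 and Arnt2, a dimer partner, one of -0.29. Among the 24 other hypoxia-induced genes, Mxi1, a repressor of Myc targets, was at 46.7 to 57.1 CPM in the DT libraries and 40.1 to 47.2 CPM in the PBS libraries (log2 change 0.25 ± 0.08, edgeR adjusted p = 0.507). Ero1l, an oxidase of protein folding, was at 33.4 to 55.8 CPM in the DT libraries and at 77.6, 88.6, 40.4 and 59.3 CPM in the PBS libraries (log2 change -0.52 ± 0.25, edgeR adjusted p = 0.571). Its high libraries were again PBS replicates 1 and 2. The hypoxia-induced list as a whole had a median log2 change of -0.05 against 0.01 over all genes.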

How the data were processed

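Gene-level RNA-seq was analysed for 8 uteri, 4 DT and 4 PBS. The values are raw read counts for each Ensembl gene, as the authors deposited them. Tools named in the submitters' processing notes are HISAT2, featureCounts, Trimmomatic, SAMtools and DESeq2, with build GRCm38. Versions, strand setting and handling of multi-mapping reads were not given in the sources used here, so reads of near-identical copies or of genes overlapping on opposite strands cannot be told apart. Symbols and exon lengths came from GENCODE M21 (49326 of 49585 identifiers matched; the rest held 0.076% of counts and were kept), promoter windows from RefSeq. All per-sample columns were mapped (0 were not).

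The members and lists were chosen with earlier results of these data known. In R 4.3.3, edgeR 4.0.16 was run on all genes: filterByExpr (minimum count 10, minimum total 15), TMM scaling, robust quasi-likelihood test, two-sided, group as the only term, Benjamini-Hochberg adjustment over 22693 genes, threshold 0.05. CPM uses TMM-scaled totals, and RPKM divides it by union exon length. Log2 fold changes are DT minus PBS. The code was tested on simulated data.

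Alternatives were DESeq2 1.42.0, limma 3.58.1 voom, 3 scalings, no filter, a fit that was not robust, a replicate block, each library left out and each pair with a shared title suffix left out. Statistics are given for members with an unadjusted p under 0.05, for Slc2a1, Slc2a4, Hk2, Ldha, Pdk4, Hif1a and Car9 in every case, and for 2 genes per pathway list with the smallest p, apart from a result that is not reported here; other members are given by level, and statistics beyond this rule were added after values were seen. Over the 28 pairs of libraries, chi-square divided by its degrees of freedom was at least 28.81, so no pair was 1 library deposited again. Figures were drawn with matplotlib 3.10.9 in Python 3.11.15.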

Additional observations from a re-analysis of the deposited data

Results flagged for a closer look

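Over 76 combinations of a member and a group, 3 held a library whose gap to its nearest neighbour took up more of the group's range than Dixon's 95% critical value for 4 samples. Chance flags about 1 in 20 such groups. Pfkfb2 was at 22.8 CPM in PBS replicate 4 and at 28.9 to 30.0 CPM in the other PBS libraries, a gap of 0.858 of the range. Hif1a was at 244 CPM in PBS replicate 1 and at 270.0 to 270.4 CPM in the others, a gap of 0.985. Ndrg1 was at 117 CPM in PBS replicate 4 and at 171 to 179 CPM in the others, a gap of 0.884.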

How the results depend on the processing

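The count of 0 members called in either direction held in 19 of 20 alternative fits. The exception was the fit without PBS replicates 4 and 6 (2 higher, 4 lower, beside 2.02% and 3.23% of all genes). Over all genes, calls depended strongly on the libraries: 73 were higher and 1 lower with all 8, 267 and 71 with DESeq2, 46 higher with limma voom, and 2 lower under scaling by library size alone or by upper quartile. With each library left out in turn, 0 to 115 genes were higher and 0 to 5 lower. Leaving out DT replicate 3, 4 or 5 or PBS replicate 1, 2 or 6 gave 0 calls (1066 to 2047 genes at unadjusted p under 0.05), and leaving out DT replicate 1 gave 115 higher. By title suffix, 0 were higher without PBS replicates 1 and 2, 478 higher and 764 lower without PBS replicates 4 and 6, 23 higher and 0 lower without DT replicates 1 and 3, and 0 without DT replicates 4 and 5. Pathway list genes were called with DESeq2 (1 higher, Hk3, and 1 lower, beside 1.04% and 0.278% of all genes). Without DT replicate 1 there was 1 higher, Hk3, beside 115 of 22895 genes (0 to 1 over the single libraries). Without PBS replicates 4 and 6 there were 2 higher, Hk3 and Eno2, and 5 lower, Slc2a5 and Pklr among them. In that fit 2.02% of all genes were higher and 3.23% lower. Members without overlap numbered 2 higher (Gpi1 and Pfkfb3, beside 4.04% of genes) under library size alone and 1 higher (Pfkfb3, beside 3.3% of genes) under upper quartile. The median PBS spread of the members was 0.093 without PBS replicates 1 and 2, over 2 libraries.

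Of the 38 members, 24 changed sign without PBS replicates 1 and 2, 11 without DT replicates 1 and 3, 2 without PBS replicates 4 and 6, 3 without DT replicates 4 and 5, 9 under library size alone and 0 to 3 in each other fit that kept all 8 libraries; leaving out single libraries turned 0 to 10. No turned value passed the threshold. Among the genes given with statistics, log2 fold changes without PBS replicates 1 and 2 were -0.39 for Slc2a4, 0.11 for Hk2, 0.070 for Ldha, -0.40 for Pdk4, -0.20 for Car9, 0.10 for Arnt2 and -0.024 for Cox6c. Without DT replicates 1 and 3 they were -0.48 for Slc2a4, 0.042 for Hk2, -0.19 for Pdk4 and -0.12 for Car9. Library size alone gave 0.014 for Hk2 and 0.0030 for Rpe, and limma voom -0.011 for Slc2a4. Leaving out single libraries gave -0.48 to 0.37 for Slc2a4, -0.22 to 0.030 for Hk2, -0.30 to 0.20 for Pdk4 and -0.042 to 0.28 for Car9. It gave log2 ratio differences of -0.0085 to 0.21 for Hk2/Hk1, -0.074 to 0.11 for Pdk1/Pdk3 and -0.33 to 0.013 for Pdk4/Pdk2. The ratio of group means gave -0.0032 for Pdk1/Pdk3. The causes were not tested.

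Numbers 1 and 4 occur in both groups. Same-numbered libraries deviated from their group means with correlations of -0.47 and 0.31, and differently numbered ones with -0.59 to 0.58. What the number marks is not given in the sources used here, and these correlations cannot decide it. A replicate block on the number left 0 genes higher and 0 lower (280 at unadjusted p under 0.05). Within those numbers the ratio differences (replicate block) were -0.12 for Hk2/Hk1, 0.24 for Pdk4/Pdk2 and -0.013 for Pdk1/Pdk3. Depth limits Aldoc most: at 98 to 126 counts per DT library, its SD of log2 CPM there (0.14) was 1.03 times the counting error alone, against 1.55 times or more for the other members.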
